A study of Mus musculus with 8 samples.

Results

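Cholesterol efflux, liver X receptor (LXR) and lipoprotein genes were examined in immature oligodendrocytes (iOLs) with and without Med23, a subunit of the Mediator complex that links transcription factors to RNA polymerase II. The 10 members were picked by gene symbol, for what their products do, from the 24346 genes of the expression table. They are the LXR genes Nr1h2 and Nr1h3, the exporters Abca1 and Abcg1, the apolipoproteins Apoe and Apod, the lipoprotein receptor Lrp1, the lysosomal cholesterol carriers Npc1 and Npc2, and the esterifying enzyme Soat1. The 8 libraries were 4 of Med23+/+ and 4 of Med23-/- cells, labelled WT and KO. The knockout cells came from Med23 fl/fl;Olig1-Cre mice, in which Cre is driven from Olig1 in the oligodendrocyte lineage, and the controls from their Med23 fl/fl littermates. Oligodendrocyte precursor cells (OPCs) were immunopanned with an antibody to CD140a, the PDGF receptor alpha, from brains at P7, after endothelial cells and microglia had been depleted on lectin-coated plates. They were expanded with PDGF-AA and NT-3. For 1 day, the cells of all 8 libraries then received the thyroid hormone T3 (15 nM) and ciliary neurotrophic factor (10 ng/mL).

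Cells dispose of surplus cholesterol along a connected route. Lipoproteins taken up by cell surface receptors are broken down in lysosomes, the NPC proteins pass the freed cholesterol out of that compartment, and what is not needed in membranes is esterified for storage or exported to apolipoproteins by ABC transporters. LXRs are nuclear receptors that sense oxysterols, pair with retinoid X receptors and switch on the export genes, and in the brain they act on lipid handling in astrocytes, microglia and oligodendrocytes, which need large amounts of cholesterol to make myelin.

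Of the 10 members, Lrp1 was higher and Soat1 was lower in Med23-/- iOLs. Lrp1, the large endocytic receptor for ApoE-containing lipoproteins, rose 1.47-fold in mean level, and Soat1, the endoplasmic reticulum enzyme that esterifies cholesterol for storage, fell to 0.647 of its Med23+/+ level. The other 6 tested members, among them both exporters and Apoe, did not pass the test. Nr1h3 and Apod were too low to be tested. Levels are given as FPKM, a read abundance divided by transcript length and by library size, which corrects for gene length and so can be set side by side between genes. Differences are on the log2(FPKM + 1) scale, Med23-/- minus Med23+/+, from limma's moderated test on the 12328 genes whose mean over the libraries reached 1 FPKM, with an adjusted p under 0.05 as the threshold.

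That test called 30.0% of all genes, so 2 of 8 members called was near the background and is not a result about the group. By direction, 14.1% of all genes tested were lower and 15.9% were higher, and 1 of 8 members fell in each class. A fold change above 2 together with the threshold was met by 4.73% of all genes, and among the members by 0 of 8 in limma, of which 2 had an unadjusted p under 0.05. The 4 libraries of each genotype did not overlap for 31.6% of all genes and for 2 of 8 members, Lrp1 and Soat1. The median difference of the 8 members was -0.10, beside -0.01 over all genes tested, and the median size of the difference was 0.17, beside 0.21.

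Med23 was read at 12.7, 12.2, 12.6 and 12.6 FPKM in Med23+/+ replicates 1 to 4 and at 8.40, 7.93, 8.49 and 8.21 in the knockout. The difference was -0.55 (SE 0.07, limma adjusted p = 0.000353), so the gene-level RNA signal fell but was not lost. The paper checked the efficiency of deletion by western blot in primary OPC lysates, which measures protein and not RNA. The depth behind each value is unknown, since the values are FPKM and not counts. Of 10 oligodendrocyte lineage markers, 6 were lower, among them Mag and Mbp, and 2 precursor markers were higher, Pdgfra and Cspg4. Of 8 neuron markers 7 were higher, and their summed level ran from 43.8 to 72.5 FPKM in Med23+/+ and from 91.9 to 197 FPKM in Med23-/- libraries. Of 10 tested astrocyte markers 3 were lower (Fgfr3, Gfap and Aqp4) and 1 was higher, while Gjb6 was at or near 0. The lower count was 5 without Med23-/- replicate 3, and the higher count was 0 without Med23+/+ replicate 3 or 4 or Med23-/- replicate 3 and 2 without Med23-/- replicate 2. None of 14 microglia and macrophage markers reached the level for testing, with sums of 1.66 to 3.96 and 3.57 to 5.17 FPKM. Of the endothelial markers 1 could be tested, Kdr, and it was higher, a call lost without Med23+/+ replicate 2, 3 or 4 or Med23-/- replicate 3 or 4. None of 3 tested mural and fibroblast markers passed the limma test, and 0 had an unadjusted p under 0.05, while 1 was higher without Med23-/- replicate 4. In such bulk RNA, fewer cells of a type and less RNA per cell cannot be told apart.

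**Figure D1:**
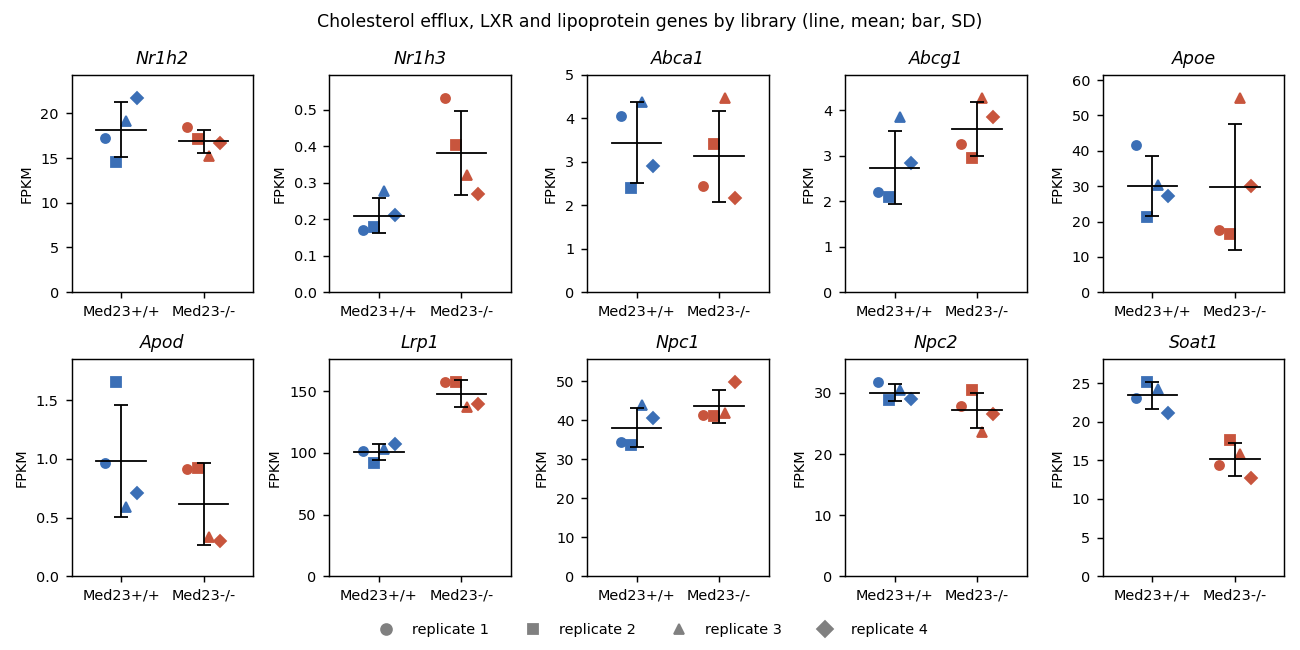
Level of each of the 10 genes in FPKM (vertical axes, starting at 0) in the 4 Med23+/+ (blue) and 4 Med23-/- (red) libraries, with symbols for replicate numbers, a line at the mean and a bar of 1 SD. The libraries of the genotypes separate for Lrp1 and Soat1 among the tested genes, and the knockout points of Apoe run from 16.4 to 55.0 FPKM.

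The levels of the members spanned from under 1 FPKM to over 100. In Med23+/+ iOLs the order ran from Lrp1 (100.8 ± 6.72 FPKM, SD, n = 4) through Npc1 (38.2 ± 4.94), Npc2 (30.0 ± 1.40), Apoe (30.0 ± 8.57), Soat1 (23.4 ± 1.71) and Nr1h2 (18.2 ± 3.04) to Abca1 (3.43 ± 0.932), Abcg1 (2.74 ± 0.808), Apod (0.979 ± 0.478) and Nr1h3 (0.210 ± 0.0485). The library ranges of neighbours in this order overlapped for Npc2 and Apoe, for Apoe and Soat1, for Soat1 and Nr1h2, and for Abca1 and Abcg1. In Med23-/- iOLs Soat1 stood below Nr1h2, at 15.1 ± 2.12 beside 16.9 ± 1.31 FPKM (SD, n = 4), with overlapping ranges, and Abcg1 stood above Abca1, again with overlapping ranges. Receptor and lysosomal genes were therefore far above the exporters in both genotypes.

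Nr1h2 encodes LXR beta, the widely expressed LXR (mm10 chr7:44549616-44553951, minus strand). Its level was 17.3, 14.5, 19.2 and 21.7 FPKM in controls and 18.5, 17.1, 15.3 and 16.6 FPKM in knockouts. The ranges overlapped, and the difference was -0.09 with a 95% interval from -0.35 to 0.17 (limma adjusted p = 0.601). Replicates 1 and 2 gave a difference of 0.16 and replicates 3 and 4 one of -0.34, of opposite sign. This split, used below too, is by replicate number only. The labels name no such batches, and each part holds 2 libraries per genotype.

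Nr1h3 encodes LXR alpha, which is most abundant in liver, fat and macrophages (chr2:91184061-91202834, minus strand). Gm13783 overlaps it on the same strand and Gm23390 on the other, and how reads were shared among these genes is not known. Nr1h3 was read at 0.170, 0.180, 0.277 and 0.213 FPKM with Med23 and at 0.533, 0.404, 0.323 and 0.269 without it. Every library was under 1 FPKM, and the lowest knockout value lay just below the highest control value. With no filter on low values the difference was 0.19 (limma adjusted p = 0.0680), which is a small step on a scale with 1 added to each value. The LXR beta level exceeded that of LXR alpha 69.2 to 102 times in Med23+/+ libraries and 34.6 to 61.8 times in Med23-/- libraries, so the receptor messages were nearly all Nr1h2 in both genotypes.

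Abca1 moves cholesterol and phospholipid onto lipid-poor apolipoproteins and is a classical LXR target (chr4:53030787-53159895, minus strand). Its promoter window is shown because it held the most kinds of motif searched, with the Sp1-type GC box core GGGCGG and the E-box CACGTG in capitals. The 300 bases from 250 before to 50 after the RefSeq start, chr4:53159846-53160145 on the minus strand of GRCm38.p6, read 5' to 3':
Abca1: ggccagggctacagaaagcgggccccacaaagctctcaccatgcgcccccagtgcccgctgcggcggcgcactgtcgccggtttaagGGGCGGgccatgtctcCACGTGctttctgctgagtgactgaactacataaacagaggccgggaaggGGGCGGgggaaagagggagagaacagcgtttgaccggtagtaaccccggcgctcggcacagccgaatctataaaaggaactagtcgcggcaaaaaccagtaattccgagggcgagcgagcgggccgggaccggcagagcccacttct

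The GC box cores began 163 and 97 bases before the Abca1 start and the E-box 147 bases before it. Abca1 was read at 4.05, 2.39, 4.37 and 2.91 FPKM in Med23+/+ and at 2.45, 3.40, 4.46 and 2.16 FPKM in Med23-/- libraries. High and low libraries occurred in both genotypes. The difference was -0.11, with a 95% interval from -0.57 to 0.34 (limma adjusted p = 0.714), and it was 0.00 on leaving out Med23-/- replicate 4.

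Abcg1, which exports cholesterol to already lipidated particles and is also an LXR target, lies at chr17:31057675-31117988 on the plus strand. The rRNA gene Gm25447 overlaps it on that strand. Abcg1 levels were 2.19, 2.08, 3.84 and 2.84 FPKM in controls and 3.26, 2.95, 4.27 and 3.85 FPKM in knockouts. The ranges overlapped because Med23+/+ replicate 3 lay above both lower knockout libraries. The difference was 0.31, with an interval from -0.05 to 0.67, and did not pass (limma adjusted p = 0.181). The ratio of Abca1 to Abcg1 in FPKM ran from 1.03 to 1.85 in Med23+/+ and from 0.562 to 1.15 in Med23-/- libraries, which overlapped.

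Apoe is the main apolipoprotein made in the brain, chiefly by astrocytes, and carries cholesterol between cells (chr7:19696109-19699188, minus strand). In the knockout it varied more, relative to its mean, than any other tested member. The control libraries held 41.6, 21.2, 30.3 and 27.1 FPKM, and the knockout libraries 17.6, 16.4, 55.0 and 30.0. Their means were nearly equal, 30.0 ± 8.57 and 29.7 ± 17.9 FPKM (SD, n = 4), with coefficients of variation of 28.5% and 60.2%.

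The lowest and the highest of the 8 Apoe values were both from knockout libraries. The difference was -0.14 with a 95% interval from -0.92 to 0.64 (limma adjusted p = 0.797) and changes of either sign within that interval were not resolved. It was -0.77 within replicates 1 and 2 and 0.49 within replicates 3 and 4. Without Med23-/- replicate 3 it was -0.48, and it was 0.02, 0.04 and 0.08 without Med23+/+ replicate 1, Med23-/- replicate 1 and Med23-/- replicate 2.

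Most astrocyte markers had their highest values in the same libraries as Apoe, a comparison chosen after the values were seen. Apoe was highest in Med23+/+ replicate 1 and Med23-/- replicate 3, and of the 10 tested astrocyte markers 8 were also highest in that control library, 7 in that knockout library and 7 in both. Gfap, the astrocyte filament protein, was at 30.0 FPKM in Med23+/+ replicate 1 beside 6.56 to 10.8 in the other controls, and reached 6.40 FPKM in the third knockout library, beside 1.23 to 2.51 in the other knockouts. Aqp4, the water channel of astrocyte endfeet, was at 10.1 FPKM beside 4.32 to 6.75, and at 4.86 beside 1.30 to 1.76. The summed astrocyte list ran from 162 to 217 FPKM in controls and from 121 to 201 FPKM in knockouts. The part of such cells in the Apoe values was not tested.

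**Figure D2:**
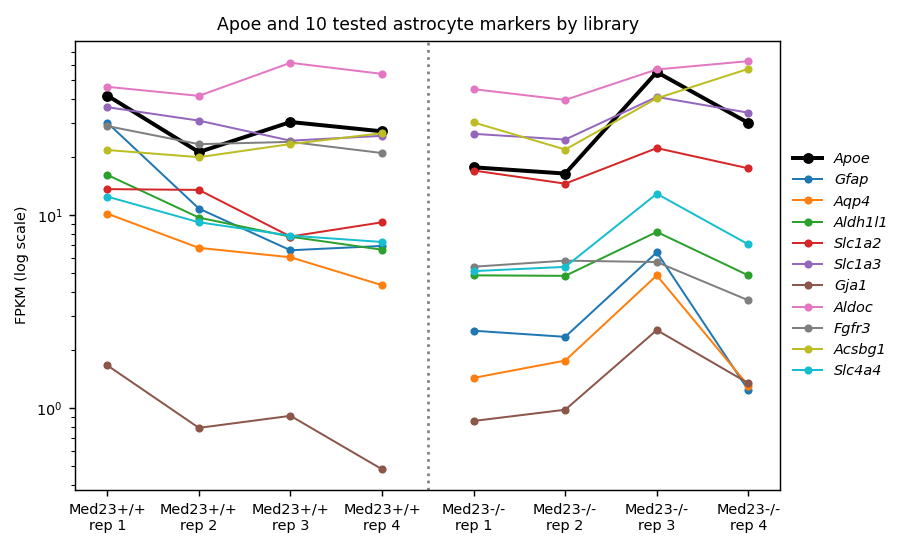
FPKM on a log scale (vertical axis) of Apoe (thick black line) and all 10 tested astrocyte markers in the 8 libraries (horizontal axis), with lines joining libraries of 1 genotype only to guide the eye. Apoe peaks in Med23+/+ replicate 1 (41.6) and Med23-/- replicate 3 (55.0), where 7 of the 10 markers also peak in both genotypes, while Aldoc and Acsbg1 peak in other libraries of both genotypes and Fgfr3 in another knockout library.

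Apod, a lipocalin that binds small lipids and becomes abundant in mature myelinating cells, lies at chr16:31296192-31314808 on the minus strand. It was read at 0.962, 1.66, 0.586 and 0.712 FPKM in controls and at 0.911, 0.921, 0.333 and 0.301 FPKM in knockouts. The ranges overlapped, and in both genotypes replicates 3 and 4 were below replicates 1 and 2. Its mean of under 1 FPKM kept it out of the test, and with no filter the difference was -0.29 (limma adjusted p = 0.359).

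Lrp1 was the most abundant member, at a higher mean level than 95.7% of tested genes (chr10:127538161-127621148, minus strand, where an antisense gene, Gm16217, overlaps it). Strand-specific counting is not stated in the sources used here, so reads of the pair could not be told apart. Its promoter window is shown as that of the member that rose, with the GC box core, here as the reverse complement CCGCCC, in capitals. It spans chr10:127621099-127621398 on the minus strand:
Lrp1: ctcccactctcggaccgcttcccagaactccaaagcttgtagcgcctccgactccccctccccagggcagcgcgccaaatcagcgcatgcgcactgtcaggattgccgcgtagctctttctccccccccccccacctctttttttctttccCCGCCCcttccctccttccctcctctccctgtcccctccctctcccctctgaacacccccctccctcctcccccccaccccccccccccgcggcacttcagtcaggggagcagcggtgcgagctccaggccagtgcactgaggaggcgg

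The GC box core began 99 bases before the Lrp1 start. The control libraries held 101, 91.4, 103 and 107 FPKM and the knockout libraries 158, 157, 137 and 140 FPKM. All 4 knockout libraries were above all 4 control libraries. The means were 100.8 ± 6.72 and 147.9 ± 11.0 FPKM (SD, n = 4), and the difference was 0.55 (SE 0.08, 95% interval from 0.36 to 0.74, limma adjusted p = 0.00120).

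Leaving out each library in turn gave Lrp1 differences from 0.50 to 0.58, all past the threshold. The difference was 0.70 within replicates 1 and 2 and 0.39 within replicates 3 and 4. Neurons express Lrp1, and neuron markers were higher in the knockout. Their sum was 72.5, 43.8, 45.0 and 49.7 FPKM in Med23+/+ replicates 1 to 4 and 122, 91.9, 197 and 161 FPKM in the knockout. Both Lrp1 and the neuron sum were thus higher in every knockout library than in every control, while among the knockouts Lrp1 was higher in replicates 1 and 2 and the neuron sum in replicates 3 and 4. Precursor markers also moved with it, Pdgfra from 121 ± 17.2 to 334 ± 9.59 FPKM (SD, n = 4), and the part of neurons or of cell stage in the Lrp1 values was not tested.

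Of 14 tested genes in the list of other lipoprotein receptors and their relatives, 4 were higher, with a median difference of 0.10. The higher ones were Sorl1 (0.65, adjusted p = 0.0294), a sorting receptor, Lrp11 (0.62, adjusted p = 0.00922), Lrp4 (0.61, adjusted p = 0.00129), an agrin receptor, and Lrp8, the reelin and ApoE receptor. The count of higher genes was 2 without Med23+/+ replicate 2 or without Med23-/- replicate 4.

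Genes with profiles most like that of Lrp1 were Pou6f1, Msantd2 and Peg13. Likeness was the mean absolute difference of log2(FPKM + 1) values, centred per gene, over the 8 libraries, searched among 9433 other genes averaging 5 FPKM or more. Both genotypes enter it, so genes with a similar difference between genotypes score as alike. The mean differences from Lrp1 were 0.0440, 0.0529 and 0.0538. Near Abcg1 in the same way were Gramd1b (0.0547), a carrier of cholesterol from the plasma membrane to the endoplasmic reticulum, and Gsap (0.0708).

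Npc1, the lysosomal membrane protein that passes cholesterol out of the organelle, lies at chr18:12189692-12236400 on the minus strand and overlaps Rmc1 and the antisense gene Gm15956 on the other strand, so its reads carry the same doubt. It was read at 34.4, 33.7, 44.0 and 40.5 FPKM in controls and at 41.4, 41.1, 42.0 and 49.9 FPKM in knockouts. The ranges overlapped through Med23+/+ replicate 3. The difference was 0.19 with a 95% interval from -0.04 to 0.43 (limma adjusted p = 0.203), and it passed only after quantile normalization, at 0.29 (adjusted p = 0.0413).

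Npc2, the soluble lysosomal protein that hands cholesterol to NPC1, lies at chr12:84754562-84773152 on the minus strand. Its levels were 31.8, 28.8, 30.5 and 29.1 FPKM in controls and 27.8, 30.5, 23.6 and 26.6 FPKM in knockouts. Med23-/- replicate 2 lay within the control range and the other 3 below it, and the difference was -0.15 with an interval from -0.34 to 0.05 (limma adjusted p = 0.235). The ratio of Npc1 to Npc2 within a library was 1.08 to 1.44 in Med23+/+ and 1.35 to 1.87 in Med23-/- iOLs, which overlapped. Among 19 tested genes of other lysosomal and intracellular sterol transport, 6 were lower and 3 were higher, with a median difference of 0.03. The largest changes were in Cav1 (-1.44, adjusted p = 0.000215), the coat protein of caveolae, Osbpl1a (-0.90, adjusted p = 0.00153), an oxysterol-binding protein of late endosomes, and Tmem97 (-0.53, adjusted p = 0.0222), which binds NPC1. The count of lower genes was 3 after quantile normalization and without Med23-/- replicate 3 or replicate 4.

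Soat1 was the member that fell (chr1:156424525-156474331, minus strand, where Gm37648 overlaps it on the other strand). Its promoter window, chr1:156474279-156474578 on the minus strand, is shown for that reason, with the GC box core in capitals:
Soat1: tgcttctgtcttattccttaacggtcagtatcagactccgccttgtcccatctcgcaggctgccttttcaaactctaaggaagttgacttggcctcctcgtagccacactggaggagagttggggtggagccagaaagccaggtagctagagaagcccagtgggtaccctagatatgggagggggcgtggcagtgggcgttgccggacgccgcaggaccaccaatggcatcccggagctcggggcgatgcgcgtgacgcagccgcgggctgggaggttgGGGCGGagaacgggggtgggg

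The GC box core of Soat1 began 29 bases after the start. Soat1 was at 23.1, 25.1, 24.2 and 21.2 FPKM in Med23+/+ libraries and at 14.4, 17.7, 15.8 and 12.7 FPKM in Med23-/- libraries. Every knockout library was below every control library. The means were 23.4 ± 1.71 and 15.1 ± 2.12 FPKM (SD, n = 4), a difference of -0.60 (SE 0.10, 95% interval from -0.84 to -0.37, limma adjusted p = 0.00232). It was -0.56 within replicates 1 and 2, -0.64 within replicates 3 and 4, and between -0.68 and -0.53 on leaving out each library.

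**Figure D3:**
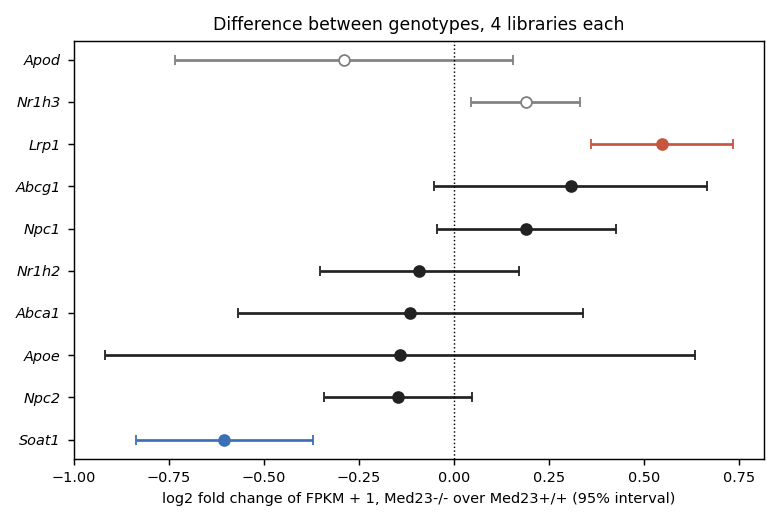
Difference between genotypes for each member on the log2(FPKM + 1) scale (horizontal axis), with limma's 95% interval, from 4 libraries of each genotype. Lrp1 (red, 0.55) and Soat1 (blue, -0.60) passed the threshold, the other 6 tested members (black) have intervals that include 0, and the open grey points are Nr1h3 and Apod from the fit with no filter on low values.

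Soat1 fell alongside cholesterol biosynthesis enzymes, a group already known from these data to be lower. Of 20 such genes, 16 were lower and 0 were higher in limma, nor did any have a higher value at an unadjusted p under 0.05, with a median difference of -0.48. After quantile normalization 10 were lower. Lss, which makes lanosterol, differed by -0.79 (adjusted p = 0.000124) and Fdps, which makes farnesyl diphosphate, by -0.71 (adjusted p = 0.000426). The 3 genes most like Soat1 were Ints6 (mean difference of profiles 0.0414), Pank3 (0.0474) and Hmgcs1 (0.0501), the enzyme that makes HMG-CoA. Their own differences between genotypes were -0.58, -0.54 and -0.66, and the likeness includes these, so it is not a separate result. Soat2, the other sterol esterifying enzyme, was close to 0 in both genotypes, with means of 0.0177 and 0.0101 FPKM. Of 9 tested genes of other sterol esterification and lipid droplets, Plin2 (0.46, adjusted p = 0.0273), a lipid droplet coat protein, and Dgat2 (0.30, adjusted p = 0.0380), which makes triglyceride, were higher, with a list median of 0.06. That count was 0 after quantile normalization and without Med23+/+ replicate 3 or Med23-/- replicate 4, and 1 without any other single library.

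The remaining genes of the LXR pathway did not share 1 direction. Of 9 tested other LXR targets, 4 were lower and 1 was higher, with a median difference of -0.18. The lower ones were Scd1 (-0.98, adjusted p = 0.00128) and Scd2 (-0.76, adjusted p = 0.000392), which desaturate fatty acids, Lpcat3 (-0.60, adjusted p = 0.00229), which puts polyunsaturated chains into phospholipids, and Fasn, the fatty acid synthase. These make or remodel fatty acids, unlike the exporters Abca1 and Abcg1, and several of them are also targets of SREBP factors. The higher one was Arl4c, a small GTPase. Among 11 tested LXR partners and coregulators, Nrip1 (0.44, adjusted p = 0.0164), a corepressor, and Ncoa1 (0.38, adjusted p = 0.0108), a coactivator, were higher, and the retinoid X receptor genes Rxra and Rxrb did not pass (0.20 and 0.11), with a list median of 0.11.

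Of 5 tested enzymes that make or clear oxysterol ligands, Cyp39a1 was higher, from 0.976 ± 0.311 to 2.25 ± 0.373 FPKM (SD, n = 4), a difference of 0.72 (limma adjusted p = 0.00519), with a list median of 0.19. That low gene is an oxysterol hydroxylase, and it dropped out at a filter of 5 FPKM. The higher count was 2 without Med23+/+ replicate 3. Among 8 tested other ABC lipid transporters Abcd3, a peroxisomal carrier of fatty acids, was lower (-0.39, adjusted p = 0.0167), with a median of -0.12. The count of lower genes was 2 without Med23+/+ replicate 2, after median-ratio scaling, after quantile normalization and with sample weights. Of 5 tested other apolipoproteins and lipoprotein remodelling genes Lcat was lower, with a median of -0.13. Lcat, which esterifies cholesterol on lipoprotein particles, was at 7.01, 4.47, 4.97 and 5.70 FPKM in controls and ran from 1.71 to 3.64 FPKM in knockouts, with a difference of -0.99 (SE 0.18, limma adjusted p = 0.00329). In both genotypes Lcat was highest in the library in which Apoe was highest. Apob, Apoc2, Apoc3 and Lipc were listed at 0 in all 8 libraries.

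**Figure D4:**
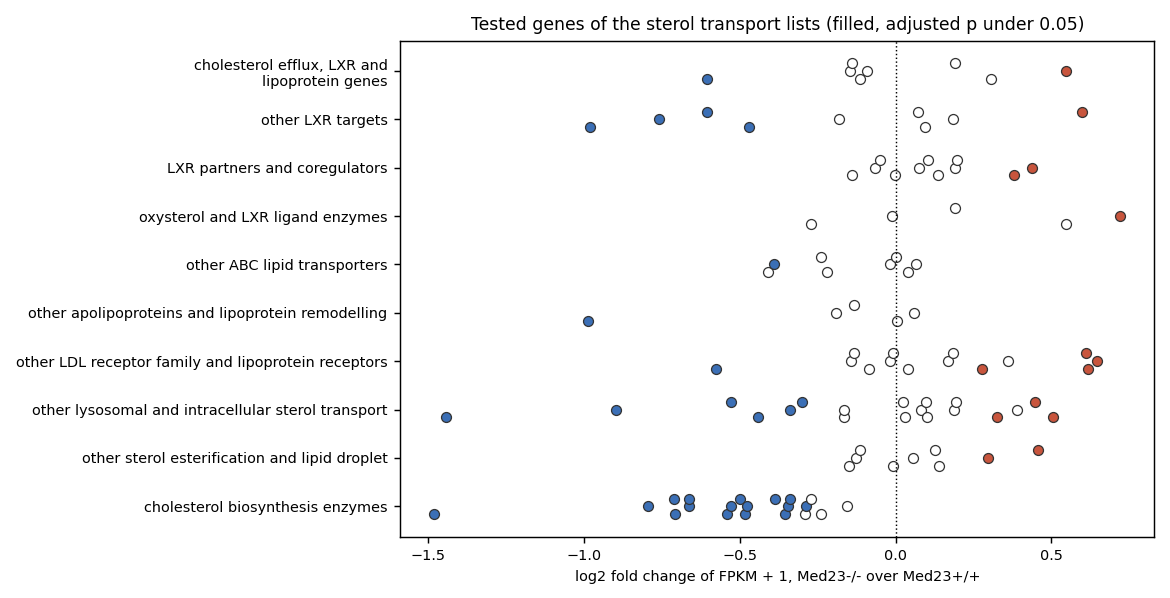
Difference between genotypes on the log2(FPKM + 1) scale (horizontal axis) of each tested gene in the members' list and 9 related lists (rows), filled red (higher) or blue (lower) where the limma adjusted p was under 0.05 and open otherwise. Biosynthesis enzymes lie on the left with 16 of 20 lower, while the transport and receptor lists have called genes on both sides.

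Promoter windows of the same length were read for 8 of the 10 members, in 11 windows. None was read for Abcg1 or Npc1, and members' windows on chromosome 18, where Npc1 lies, were left out. On both strands, the GC box core GGGCGG occurred in 4 of the 11 windows and in 35.7% of 32851 mouse windows, a similar share of windows. The 4 windows belonged to 4 of the 8 members read, Abca1, Lrp1, Npc2 and Soat1. Apoe gave 3 of the windows and Nr1h3 gave 2, partly overlapping and all without a GC box core. The share of all genes with a GC box core was not worked out. None of the matches overlapped another. Npc2 held 3 of them, beginning 173, 114 and 93 bases before its start, and 10.7% of all windows held at least 3. The E-box CACGTG occurred at Abca1 among the members and in 7.15% of all windows. AGGTCA, a consensus half-site of nuclear receptors, was in none of the 11 windows and in 16.3% of all windows. Its exact direct repeat with a spacer of 4 bases, the classical LXR arrangement, was in none of the 11 windows. Only 5 of the 32851 windows, 0.0152%, held that repeat. Exact letters alone were searched, so sites with other bases were not counted. A miss therefore does not show that a member, Abca1 included, lacks an LXR site. Members with a GC box core included 1 that rose, 1 that fell and 2 that did not pass.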

How the data were processed

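RNA from 8 iOL preparations (4 Med23+/+, 4 Med23-/-) was sequenced, and the groups and replicate numbers came from the sample titles. The authors used Cutadapt for trimming, TopHat2 for alignment to mm10 and Cuffdiff (-b -u) for quantification. Tool versions, annotation and library scaling are not given in the sources used here. The authors deposited FPKM values per library, and their columns of fold changes, p-values and q-values were not used. The number of library columns left out was 0. Values were taken as log2(FPKM + 1), genes averaging 1 FPKM or more were tested in limma 3.58.1 (R 4.3.3, lmFit and eBayes with trend), with Benjamini-Hochberg adjusted p-values. The script was tested on simulated data. Every member was named. In each other list the 3 called genes with the largest differences were named, and any further gene was picked with its values in view. Some genes that meet these rules are left out of the text. The members and lists were chosen with earlier results of these data known. No source says that replicates were separate animals, so p-values measure only the spread between these libraries. Gene positions came from GENCODE vM21 and promoter windows from RefSeq (GRCm38.p6). Alternatives changed the pseudocount, filter, scaling, trend, weights, block and libraries used.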

Additional observations from a re-analysis of the deposited data

Results flagged for a closer look

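Library values were looked at in 78 groups of 4 libraries over 39 genes, of which 20 groups belonged to the members, and 7 groups had a library far from the other 3 relative to their spread. Chance flags about 1 in 20 such groups. Among the members it was Npc1, at 49.9 FPKM in Med23-/- replicate 4 beside 41.1 to 42.0 in the other knockout libraries.

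In Med23-/- replicate 3, the library with the highest Apoe value, 3 other genes stood apart. Aqp4 was at 4.86 FPKM beside 1.30 to 1.76, Lcat at 3.64 FPKM beside 1.71 to 2.03, and the myelin gene Mag at 1.47 FPKM beside 0.597 to 0.699. Lss was lowest in Med23-/- replicate 4, at 48.5 FPKM beside 55.6 to 56.0. Cyp39a1 was at 1.44 FPKM in Med23+/+ replicate 2 beside 0.785 to 0.846. Kdr was at 0.963 FPKM in Med23+/+ replicate 1, the control library with the highest Apoe value, beside 0.332 to 0.378.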

How the results depend on the processing

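Lrp1 and Soat1 passed the threshold under all 17 settings tried beside the one reported. Their differences ran from 0.50 to 0.67 and from -0.68 to -0.52. After quantile normalization 2 members were higher, Lrp1 and Npc1. Leaving out 1 library at a time gave Abca1 differences from -0.26 to 0.00189 and Apoe differences from -0.48 to 0.0780. The Abca1 difference turned to 0.00189 without Med23-/- replicate 4. The Apoe difference turned to 0.0247 without Med23+/+ replicate 1, to 0.0440 without Med23-/- replicate 1 and to 0.0780 without Med23-/- replicate 2, and none of these passed. With the replicate number as a block the same 2 members were called, Lrp1 and Soat1, while calls over all genes went from 3695 to 3920. The block moved the oxysterol enzymes from 0 lower and 1 higher to 1 lower and 2 higher, the astrocyte markers from 1 to 2 higher, the mural and fibroblast markers from 0 to 3 higher and the endothelial markers from 1 to 0 higher. Deviations of same-numbered libraries correlated at 0.130, -0.0960, -0.0260 and 0.159, not all above 0.1, so the libraries were not treated as paired. Among differently numbered libraries the highest was 0.162, Med23+/+ replicate 1 with Med23-/- replicate 2. The lowest was -0.179, Med23+/+ replicate 4 with Med23-/- replicate 1. Of 510 counts over the lists, 460 stayed within 1.5 times the reported count and 50 did not, and the cause was not tested. With quantile normalization 10 of the 20 biosynthesis enzymes were lower. Without read counts, what depth limits at Nr1h3 and Apod could not be worked out.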
